A study of Mus musculus with 47 samples.

Results

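The genes described here are 32 genes of glycolysis and of the response to low oxygen, read in 47 leukaemic mouse spleens. They were chosen by name, for what they are known to do, with earlier results of these data known. Of the 32, 30 had a single-gene probe set or, for Gapdh alone, an array control probe set, and 29 were tested among 18178 genes. Gpi1 (glucose-6-phosphate isomerase) and Eno1 (enolase 1) had no probe set that the platform annotation names for them alone, so no level is given for either. Gapdh was read on control probe sets and entered only the fits that allowed these. Where several single-gene probe sets read a gene, the brightest on average was used. The markers of the group are Ldha, which lay above log2 7 on all 47 arrays, and Slc2a1, which passed log2 6 on 22 of them.

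Glycolysis breaks glucose down to pyruvate in the cytoplasm and yields ATP without oxygen. Glucose enters through GLUT transporters, a hexokinase traps it, phosphofructokinase commits it to breakdown, and lactate dehydrogenase converts pyruvate to lactate. When oxygen is short, the prolyl hydroxylases (the Egln genes) stop marking HIF-1 alpha for destruction, and the stabilised factor switches on many of the same glycolytic genes together with genes of mitophagy, blood vessel growth and collagen folding. Since HIF-1 alpha is controlled mainly as a protein, Hif1a RNA is not a measure of its activity. Mature red cells have no mitochondria and live on glycolysis, activated lymphocytes raise it, and several of the enzymes have isoenzymes that blood lineages use differently.

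All 47 mice were labelled as terminal cases of undifferentiated myeloid leukaemia, and spleen tissue was frozen at necropsy. Every mouse carried Tg(ACTB-cre)2Mrt, a Cre recombinase under the beta-actin promoter that is active in nearly all tissues, and Gt(ROSA)26Sortm2(sb11)Njen, the Sleeping Beauty transposase at the Rosa26 locus. The transposon came from TgTn(sb-T2/Onc2)6070Njen in 26 mice (line 6070) and from TgTn(sb-T2/Onc2)6113Njen in 21 (line 6113). A mobilised transposon lands at different sites in each cell lineage, so each leukaemia is expected to carry its own insertions. An insertion in Erg, an ETS family transcription factor of stem cells and megakaryocytes, was labelled in 26 tumours and not in 21. The mice were labelled female in 25 cases and male in 22, and the age labels ran from 32 to 97 with a median of 68.0, in a unit that is not given. No spleen of a healthy mouse was analysed here, so levels are compared only among leukaemic spleens.

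Before any comparison, 24 of the 47 arrays had a level of Xist, an X-linked transcript of female cells, that did not match the sex label. The other 23 matched. Xist above log2 7 was read as female and any other level as male. The groups are therefore arrays labelled with a state, and a result on any label rests on labels that may not belong to the array. The spleens also differed widely in their blood lineages. The erythroid marker Klf1 ran from 5.62 to 9.99 and the megakaryocyte marker Pf4 from 6.25 to 11.23 on the log2 scale. Cd3d, a T cell marker, passed log2 7 in 9 arrays, and Vpreb1, of early B cells, in 15, with 2 arrays above for both, although the diagnosis was myeloid. The remaining 25 arrays had both at or below 7. In a whole spleen, fewer cells of a type and less RNA per cell cannot be told apart.

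The stretches of DNA before the start sites are shown for members on which the results turn: Ldha, the anchor of the glycolytic genes; Pgk1, which moved with it; Bnip3, a hypoxia-induced gene called with no lineage index; Egln3, the member most closely tied to T cell markers; and Hk1, the member with the widest range. Each is the 250 bases before a RefSeq start in GRCm38.p6, written 5′ to 3′ on the strand of the gene. In the first 4, capitals mark the core of the HIF response element, ACGTG or GCGTG, read on both strands. In Hk1 they mark GATAA, the core bound by GATA factors, on both strands.
Ldha, chr7:46845554-46845803, plus strand: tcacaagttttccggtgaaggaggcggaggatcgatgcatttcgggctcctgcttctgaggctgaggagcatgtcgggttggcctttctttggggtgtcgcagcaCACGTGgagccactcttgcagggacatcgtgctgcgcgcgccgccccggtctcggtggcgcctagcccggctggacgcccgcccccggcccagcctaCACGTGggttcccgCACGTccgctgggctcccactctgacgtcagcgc
Pgk1, chrX:106186850-106187099, plus strand: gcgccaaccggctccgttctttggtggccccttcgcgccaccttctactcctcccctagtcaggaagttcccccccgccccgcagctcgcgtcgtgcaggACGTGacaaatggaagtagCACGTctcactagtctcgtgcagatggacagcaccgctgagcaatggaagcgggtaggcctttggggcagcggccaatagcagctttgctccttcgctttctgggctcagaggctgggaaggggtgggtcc
Bnip3, chr7:138909507-138909756, minus strand: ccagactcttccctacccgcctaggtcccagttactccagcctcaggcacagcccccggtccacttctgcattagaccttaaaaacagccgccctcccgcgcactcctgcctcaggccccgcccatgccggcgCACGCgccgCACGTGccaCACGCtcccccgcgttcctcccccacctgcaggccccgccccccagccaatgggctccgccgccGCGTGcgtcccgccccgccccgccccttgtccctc
Egln3, chr12:54203875-54204124, minus strand: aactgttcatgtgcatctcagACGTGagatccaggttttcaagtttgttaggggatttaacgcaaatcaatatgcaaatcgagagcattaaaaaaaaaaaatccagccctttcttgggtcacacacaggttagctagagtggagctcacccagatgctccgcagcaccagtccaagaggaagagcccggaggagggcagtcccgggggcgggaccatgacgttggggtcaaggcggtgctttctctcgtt
Hk1, chr10:62379909-62380158, minus strand: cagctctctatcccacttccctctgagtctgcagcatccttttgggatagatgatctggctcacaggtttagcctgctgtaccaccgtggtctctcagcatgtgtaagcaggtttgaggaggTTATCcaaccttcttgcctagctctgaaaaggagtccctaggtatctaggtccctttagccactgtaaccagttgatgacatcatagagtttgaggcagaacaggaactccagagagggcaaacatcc

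The Ldha window shown held 5 matches to the HIF core, because each of its 2 palindromic CACGTG words counts once on each strand; CACGTG is also the E-box of Myc and USF factors. The window before its second RefSeq start, chr7:46846832-46847081, held 1 match and no ACGTG. Bnip3 held 5 matches, Pgk1 2 and Egln3 1. Of the 32 members, 30 had 44 such windows in RefSeq, Gpi1 and Eno1 among them, and 35 windows (79.5%) of 27 genes held ACGTG or GCGTG. The share over all 32851 windows of the same length was 38.6%, so the core itself is common. The stricter ACGTG was in 47.7% of the member windows and in 16.6% of all windows. GATAA was in 18.2% of member windows and 22.6% of all windows. Hk1 had 1 GATAA match before its upstream start, the window shown, and none before its downstream start. For the HIF core, Hk1 had 0 matches before the upstream start and 3 before the downstream start, chr10:62340422-62340671. Aldoa, Aldoc, Pkm, Pfkm, Pdk1, Pfkfb3, Vegfa and Eno1 also have several starts each, and the arrays do not separate the starts of a gene. The members were chosen by name as genes of glycolysis and the low-oxygen response. Their higher share of the core is therefore no independent test. Some windows of Aldoa, Pfkm and Eno1 overlap, and each was counted. These are matches of letters, and neither binding nor activity of any factor was measured. Ndrg1 and Slc2a3 had no window in the table.

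Levels separated the members into a bright set, a set that varied, and a set near the floor. The array medians of all probe sets lay between 5.19 and 5.24, so a log2 value close to 5 is at the floor of the platform, where RMA compresses differences. Values of different genes come from different probes, so the levels of different genes are not ranked. Above log2 7 on all 47 arrays were 5 members: Aldoa, Tpi1, Gapdh, Pgk1 and Ldha. Never above log2 6 on any array were 7: Slc16a3, Aldoc, Eno2, Pfkfb4, Vegfa, Ankrd37 and P4ha1.

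**Figure D1:**
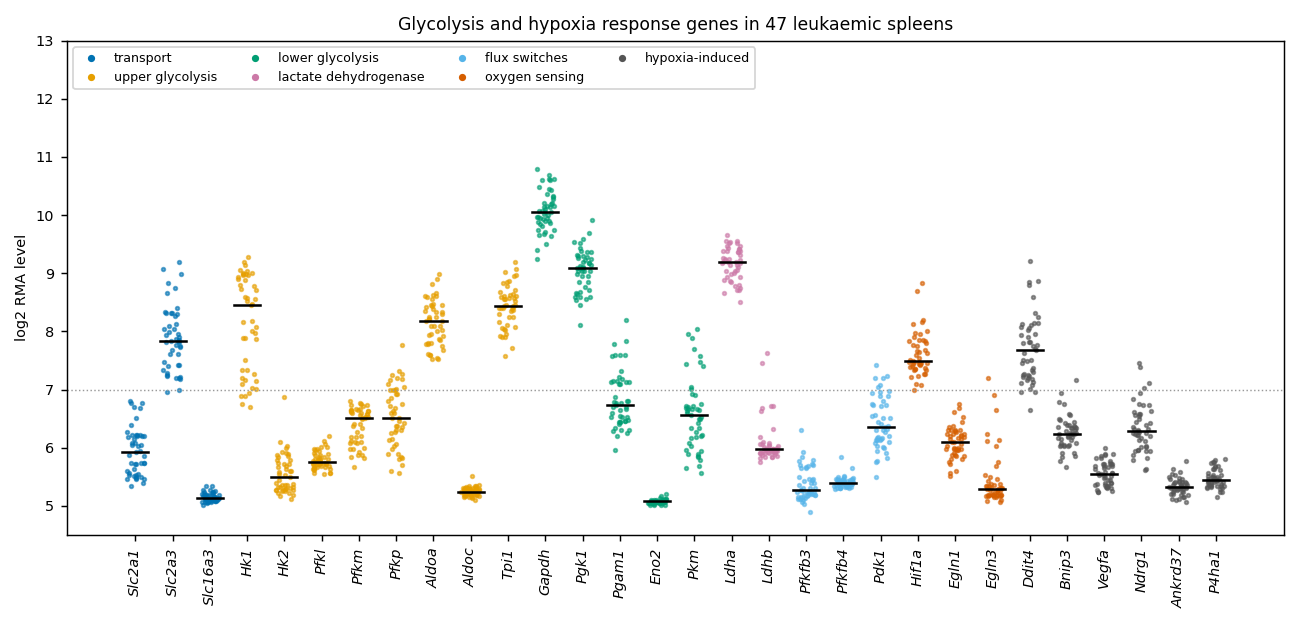
Log2 RMA level (y axis) of the 30 measured members (x axis), grouped by role in colour, with 1 point per array (47 arrays) and the median as a black bar; the dotted line is at log2 7. Aldoa, Tpi1, Gapdh, Pgk1 and Ldha lie above the line on every array, while Hk1 spreads from 6.69 to 9.28.

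Among the transporters, Slc2a3 (GLUT3, a high-affinity glucose carrier) ran from 6.96 to a highest value of 9.19 with a median of 7.84. Slc2a1 (GLUT1, the carrier that most cells use) ran from 5.33 to 6.80 around a median of 5.92, and 22 of 47 arrays passed log2 6. Slc16a3 (MCT4, which exports lactate) lay between 5.01 and 5.33, at the floor on every array. The suffix of the GLUT3 probe set marks its probes as shared by several transcripts, so it can read related sequences too.

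In upper glycolysis, Hk1, the hexokinase of red cells and brain, had the widest span of all members, from 6.69 over a median of 8.46 to 9.28, a 5.99-fold range. Hk2, the regulated hexokinase of muscle and many tumours, lay between 5.12 and 6.87 with a median of 5.49, and 3 arrays passed log2 6. The phosphofructokinase genes had different spans: Pfkl (liver type) ran from 5.54 to 6.21, Pfkm (muscle type) from 5.67 to 6.80 and Pfkp (platelet type) from 5.57 to 7.76. Aldoa, the aldolase of muscle and red cells, ran from 7.52 to 8.99, whereas Aldoc, the brain aldolase, stayed between 5.10 and 5.51. Tpi1, triosephosphate isomerase, ran from 7.58 to 9.20. Aldoa and Tpi1 were also read on probe sets open to cross-hybridisation, and their other probe sets followed the ones used with r of at least 0.82 over the 47 arrays.

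In lower glycolysis, Gapdh ran from 9.24 to 10.79 with a median of 10.06 and Pgk1, phosphoglycerate kinase, from 8.11 to 9.92 with a median of 9.09. Pgam1, phosphoglycerate mutase, spanned 5.95 to 8.20 and Pkm, pyruvate kinase of muscle type, 5.56 to 8.04, a 5.57-fold range. Eno2, the neuronal enolase, was flat at 5.01 to 5.20. Ldha, which makes lactate, ran from 8.50 over 9.20 to 9.66, the narrowest fold range (2.23) of the 5 bright members. Ldhb, the subunit that favours pyruvate, had a median of 5.97, and only its highest arrays reached up to 7.64, with 2 above log2 7.

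The flux switches were dim in most spleens. Pdk1, the kinase that closes the pyruvate dehydrogenase gate, ran from 5.49 to 7.42 with a median of 6.35. Pfkfb3 and Pfkfb4 set the level of fructose 2,6-bisphosphate, the activator of phosphofructokinase; the former ran from 4.90 to 6.31 and the latter from 5.29 to 5.84. Of the oxygen sensors, Hif1a itself ran from 6.99 over 7.49 to 8.83. Egln1 (PHD2, the main oxygen sensor) ran from 5.52 to 6.75. Egln3 (PHD3, itself a HIF target) had a median of 5.29 and a long upper tail to 7.20, with 7 arrays above log2 6.

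Of the hypoxia-induced genes, Ddit4 (REDD1, an mTOR inhibitor) was the only one above log2 7 in most arrays, in 44 of 47, and ran from 6.64 over 7.67 to 9.21. Ndrg1, a stress-induced gene, ran from 5.62 to 7.45 and Bnip3, a mitophagy receptor, from 5.66 to 7.17. Vegfa, the vessel growth factor, ran from 5.23 to 6.00, Ankrd37 from 5.06 to 5.77 and P4ha1, a collagen prolyl hydroxylase, from 5.14 to 5.80. For these last 3 genes the fold ranges were 1.71, 1.64 and 1.58.

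Whether the members differ by the labels was tested with limma across all genes, with Benjamini-Hochberg adjusted p under 0.05 as the call. No member was called for the Erg label, the line, the sex label or age, and 0.0% of all tested genes were called for each of these labels. For the sex label this held even for Xist. As the labels may not belong to the arrays, these fits cannot show whether members differ by the true states. At an unadjusted p under 0.05, 0 members and 666 genes of 18178 passed for the Erg label, 0 members and 540 genes for the line, 0 members and 460 genes for the sex label, and 1 member (P4ha1) and 688 genes for age. Ldha ran from 8.67 over 9.21 to 9.66 in the 26 arrays with the Erg label, and from 8.50 over 9.18 to 9.56 in the other 21. The ranges overlapped over nearly their whole span, and the adjusted difference was 0.06 log2 units (95% interval -0.11 to 0.23). Slc2a1 differed by 0.08 (-0.17 to 0.34). The highest difference was that of Ddit4, with medians of 7.78 and 7.38, an adjusted difference of 0.32 (-0.02 to 0.66) and an adjusted p of 0.999. Over the 29 members the differences ran from -0.10 for Pdk1 to 0.32, with a median of 0.04 against 0.0016 over all genes.

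**Figure D2:**
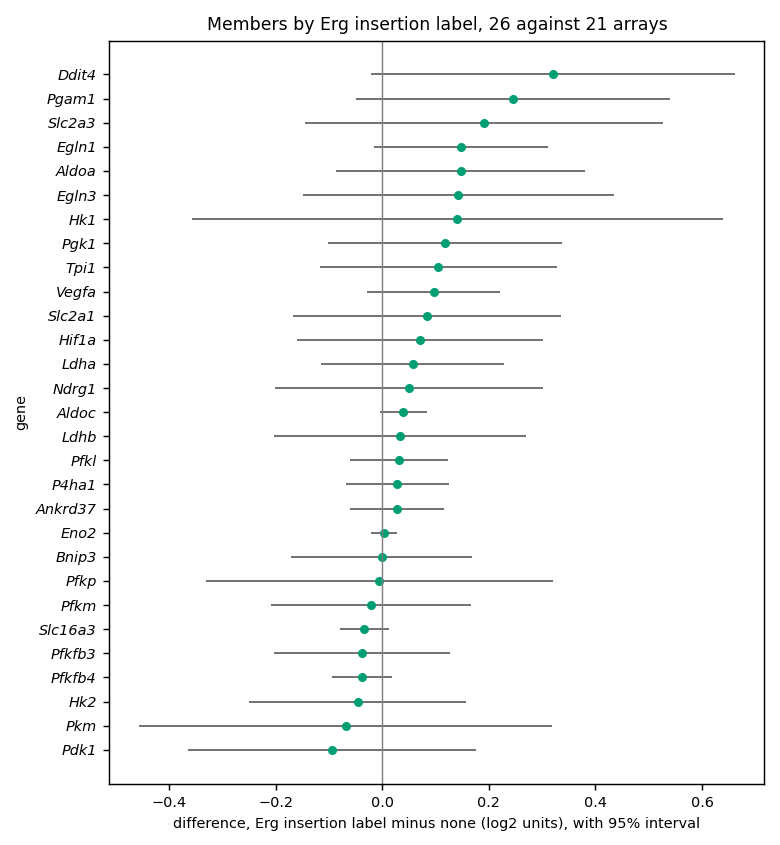
Difference in log2 level between arrays labelled with an Erg insertion (26) and without (21) for the 29 tested members, adjusted for line and sex labels, with 95% intervals (x axis, log2 units; genes on the y axis). Every interval includes 0, and the difference is highest for Ddit4 at 0.32. The labels may not belong to the arrays.

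By line, the differences ran from -0.29 for Hk1 (95% interval -0.79 to 0.21) to 0.22 for Pgam1 (-0.08 to 0.51). A p that misses the threshold does not show equal levels. Terms for Erg by line and Erg by sex called no member and no gene; 3 and 2 members passed at an unadjusted p under 0.05, and the smallest adjusted p of a member was 0.681 and 0.838.

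The members were next set against 8 marker indices, each the mean of the standardised levels of a marker list (for example Klf1, Slc4a1 and Alas2 for red cells, Cd3d and Thy1 for T cells) over the 47 arrays. Of 66 markers listed, 58 were measured. In the T and B cell lists Cd3e (highest 6.59), Cd79a (highest 6.55) and Pax5 (highest 5.65) never passed log2 7. Neither did Pecam1, Cdh5, Kdr and Col1a1 in the stroma and endothelium list. The same holds for Cd68 and Cx3cr1 (monocyte and macrophage), Cxcr2 (neutrophil) and Gp6 (megakaryocyte and platelet). Slopes are in log2 units per SD of the index. The indices are not independent of one another: the erythroid index correlated with the cell cycle index at r = 0.46 and with the T cell index at r = -0.37 over the 47 arrays. The T and B cell indices fall into a low mass and a high tail, so slopes on them mostly set the tail against the mass.

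**Figure D3:**
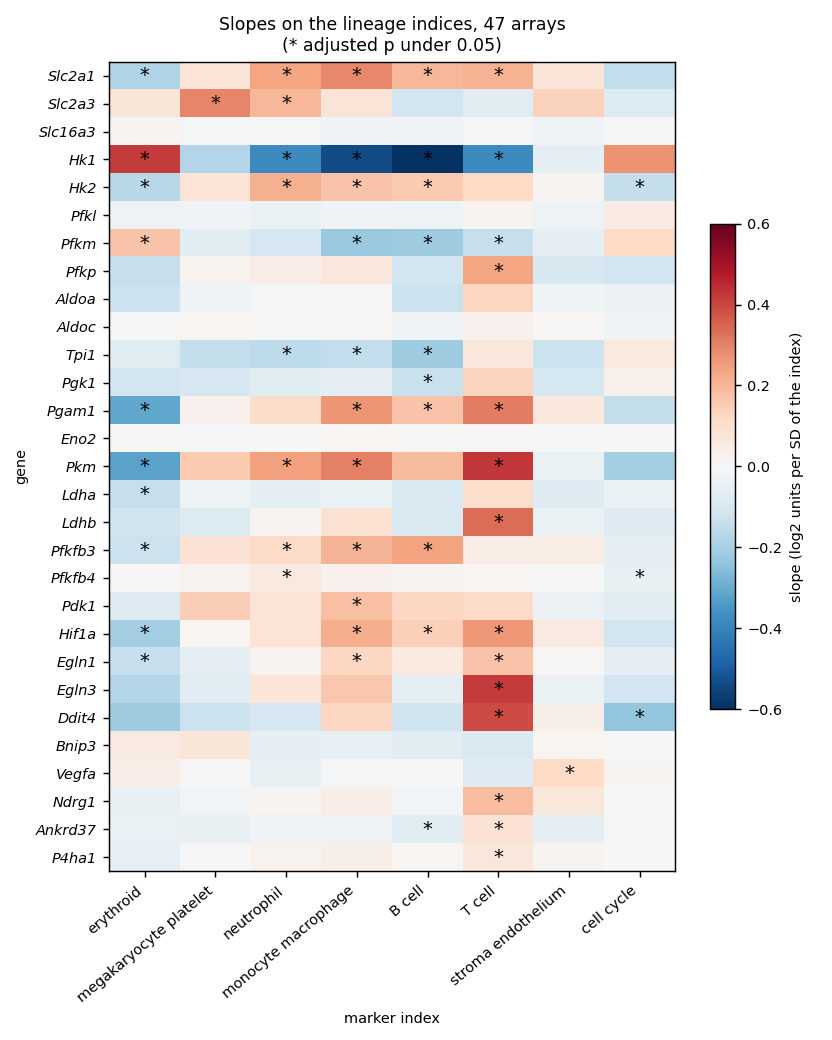
Slope of each of the 29 tested members (rows) on each of 8 marker indices (columns) over 47 arrays, in log2 units per SD of the index, from blue (lower) to red (higher); asterisks mark adjusted p under 0.05. Hk1 is red against the erythroid index (0.42) and blue against the neutrophil, monocyte, B cell and T cell indices.

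With the erythroid index, 2 members rose and 8 fell, against 7.91% of all genes called higher and 8.43% called lower. Such shares of all genes include many genes near the floor, which are rarely called. In the fit of the 5404 genes with a mean above log2 6, 32.9% were called, and 8 of 17 members. Hk1 rose by 0.42 ± 0.10 log2 units per SD (SE, n = 47; adjusted p = 0.0038) and Pfkm, the muscle-type phosphofructokinase, by 0.17 ± 0.039 (adjusted p = 0.0016). Hk1 and Pfkm are isoforms that red cells are known to use, and so is Aldoa, which had a negative slope and was not called. Pkm fell by 0.32, Pgam1 by 0.31, Hif1a by 0.20, Slc2a1 by 0.18, Hk2 by 0.17, Egln1 by 0.14, Ldha by 0.14 and Pfkfb3 by 0.13. None of the 6 hypoxia-induced members was called; Ddit4 and P4ha1 passed at an unadjusted p under 0.05 only. Ddit4 was called in 3 of the alternatives, and without the 2 arrays farthest from the index median its slope was -0.40 (adjusted p = 0.0014). In that fit 11 members were called, with 12.5% of all genes. Egln3 (-0.30) and Ldhb (-0.23) were among them, and Slc2a1 and Pfkfb3 (-0.051) were not. On the control probe sets, Gapdh had a slope of -0.18 with an adjusted p of 0.0019.

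The same slopes were then recomputed in subsets of arrays. Among the 25 arrays with Cd3d and Vpreb1 at or below 7, 0 members were called with the erythroid index, 2 passed at an unadjusted p under 0.05, and 6 of the 10 slopes kept their sign. There the slope of Hk1 was 0.0056 and that of Pgam1 -0.014, while that of Pkm was 0.15. Ldha had a slope of -0.15 and an adjusted p of 0.339. Those 25 arrays spanned -0.96 to 1.57 SD of the index, against -3.23 to 2.07 over all arrays. The low end is thus cut away, and that subset retests the slopes over part of the range only. In the 33 arrays with the number 09 in the tumour identifier all 10 were called again in the same direction, and 11.7% of all genes were called. In the 11 arrays with 07 all 10 kept their direction and 0 were called, while 8 members passed at an unadjusted p under 0.05 and 0.154% of all genes were called. With the 8 indices fitted together, all 10 kept their direction and 4 stayed called: Pkm, Pgam1, Ldha and Pfkfb3. In that fit 9.91% of all genes were called. Adjusted p over the alternatives ran for Hk1 from 0.0016 to 0.991.

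**Figure D4:**
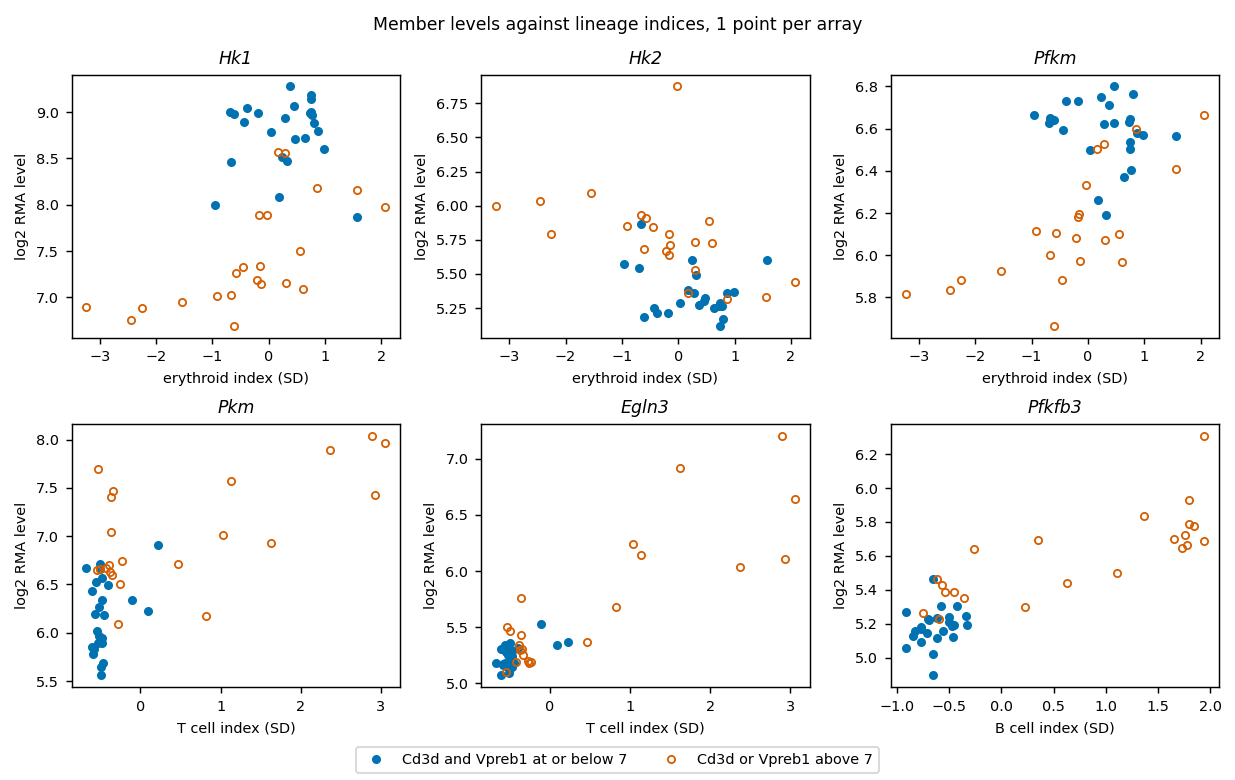
Log2 RMA level (y axes) of Hk1, Hk2 and Pfkm against the erythroid index, Pkm and Egln3 against the T cell index, and Pfkfb3 against the B cell index (x axes, in SD), with 1 point per array. Filled points are the 25 arrays with Cd3d and Vpreb1 at or below log2 7, and open points are the other 22; the filled points of Hk1 lie in the upper part of its range of 6.69 to 9.28.

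Along the B cell index, 5 members rose (12.0% of all genes were called higher) and 5 fell (18.6% lower). Of the genes with a mean above log2 6, 53.9% were called, and 8 of 17 members. Hk1 fell by 0.59 ± 0.084 per SD (adjusted p = 3.3e-07), which is 1.51-fold, and Tpi1, Pfkm, Pgk1 and Ankrd37 fell by 0.22, 0.21, 0.14 and 0.061. Pfkfb3, which promotes glycolytic flux, rose by 0.24 ± 0.022 (adjusted p = 2.0e-12). Slc2a1, Pgam1, Hk2 and Hif1a rose by 0.20, 0.17, 0.16 and 0.14. Where Cd3d and Vpreb1 were both low, 0 members were called, 3 had an unadjusted p under 0.05, and 2 of 10 signs were kept. Vpreb1 is itself a marker of this index. Those arrays spanned only -0.92 to -0.33 SD of it, against a highest value of 1.95 over all arrays. Most of the range is thus cut away, and that subset cannot retest the slopes.

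With the T cell index 14 members were called: 12 rose, with 7.31% of all genes called higher, and 2 fell, with 5.84% lower. Of the genes with a mean above log2 6, 24.9% were called, and 12 of 17 members. Egln3 rose by 0.42 ± 0.033 per SD (adjusted p = 4.7e-14) and Ldhb by 0.33 ± 0.028 (adjusted p = 4.8e-13). Pkm rose by 0.43 ± 0.069, Ddit4 by 0.39 ± 0.062, Pgam1 by 0.31, Hif1a by 0.26, Pfkp by 0.24, Slc2a1 by 0.21, Ndrg1 by 0.18 and Egln1 by 0.17. The near-floor genes Ankrd37 and P4ha1 rose by 0.086 and 0.066. Hk1 fell by 0.38 and Pfkm by 0.14. So 4 of the 6 hypoxia-induced members, Ddit4, Ndrg1, Ankrd37 and P4ha1, rose along this index, and Bnip3 and Vegfa were not called. Gapdh rose by 0.19 on the control probe sets (adjusted p = 0.0011). The median slope of the 29 members was 0.11 against -0.0038 over all genes.

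These slopes rest on few arrays, since Cd3d passed log2 7 in 9. In the 25 arrays with both lymphoid genes low, 0 members were called, 1 (Egln3) had an unadjusted p under 0.05, and 11 of 14 signs were kept. There Egln3 had a slope of 0.28 and an adjusted p of 0.419. Cd3d is itself a marker of this index. Those arrays spanned only -0.67 to 0.22 SD of it, against a highest value of 3.06 over all arrays, so that subset cannot retest the slopes. Without the 2 arrays farthest from the index median, 10 members and 4.98% of all genes were called, Egln3 with a slope of 0.50. In the 11 arrays with 07 in the tumour identifier, 7 of the 14 were called again in the same direction, and in the 33 arrays with 09, 8 of the 14 were, with all 14 slopes in the same direction. With all 8 indices in the model, 12 of the 14 stayed called in the same direction, and 15.4% of all genes were called.

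Along both myeloid indices Slc2a1 and the hexokinase Hk2 rose, as they did along the B cell index, while the hexokinase Hk1 fell. Slc2a1 rose along the T cell index too, so these rises were not particular to the myeloid indices. With the monocyte and macrophage index, 8 members rose (13.3% of all genes higher) and 3 fell (14.8% lower): Pkm, Slc2a1, Pgam1, Hif1a, Pfkfb3, Pdk1, Hk2 and Egln1 rose by 0.30, 0.29, 0.26, 0.22, 0.21, 0.18, 0.17 and 0.12, and Hk1, Pfkm and Tpi1 fell by 0.54, 0.22 and 0.15. With the neutrophil index, 6 rose (8.48% higher) and 2 fell (16.6% lower). Slc2a1 rose by 0.24 ± 0.050, Hk2 by 0.22 ± 0.037, Pkm by 0.25, Slc2a3 by 0.20, Pfkfb3 by 0.11 and Pfkfb4 by 0.059. Hk1 fell by 0.38 and Tpi1 by 0.16. Of the genes with a mean above log2 6, 49.9% were called with the monocyte index, and 8 of 17 members. With the neutrophil index these were 51.0% and 4 of 17. With all 8 indices together, 0 of the 11 monocyte calls held and 3 of the 8 neutrophil calls did (Hk2, Slc2a1 and Pfkfb4). Where lymphoid genes were low (25 arrays), Pfkm was called with the monocyte index, and Hk1 and Hk2 with the neutrophil index, at slopes of -0.23 and 0.12.

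Few members moved with the other indices. Slc2a3, the high-affinity glucose carrier that platelets are known for, rose by 0.29 ± 0.069 per SD of the megakaryocyte and platelet index (adjusted p = 0.0055), the 1 member called, with 3.7% of all genes called higher and 3.73% lower. It rose by 0.28 (adjusted p = 0.039) in the 25 arrays with low lymphoid genes, where Pkm and Pfkm were called as well. Without the 2 arrays farthest from the index median 6 members were called, Slc2a3 among them, and 13.6% of all genes were, against 7.43% over all 47 arrays. With the 8 indices together Slc2a3 was not called. Vegfa rose by 0.12 ± 0.025 per SD of the stroma and endothelium index (adjusted p = 0.0052), the 1 called member, with 1.16% of genes higher and 0.11% lower. It was also called with the 8 indices together (0.18), but not in the 25 arrays with low lymphoid genes, where Pgam1 was. With the cell cycle index 0 members rose (8.77% of genes higher) and 3 fell (4.13% lower): Ddit4 by 0.23, Hk2 by 0.14 and Pfkfb4 by 0.044. None of these was called in the 33 arrays with 09 in the tumour identifier.

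Of the 29 tested members, 6 (20.7%) were called with none of the 8 indices over all 47 arrays, as were 43.6% of all genes: Slc16a3, Pfkl, Aldoa, Aldoc, Eno2 and Bnip3. Of these, all but Bnip3 were called with some index in at least 1 alternative. With the erythroid index, Aldoa was called once the 3′ minus 5′ term was a covariate (adjusted p = 0.026), and Eno2 once the 8 indices were fitted together (adjusted p = 0.034). Eno2 lay at the floor on every array, between 5.01 and 5.20. Aldoa is the 1 bright gene among these, with a span of 1.47 log2 units, and Bnip3 spanned 1.51.

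Isoenzyme use was followed as the change, along the erythroid index, of the difference between 2 genes on the same array, with two-sided permutation tests (100000 resamples) adjusted over the 9 pairs that both had a probe set. The pair of Eno1 and Eno2 could not be used. The change was called in 6 of the 9 pairs. Hk1 minus Hk2 rose by 0.58 per SD (95% interval 0.31 to 0.86; adjusted permutation p = 0.00032), the largest of the 9. Pfkm rose relative to Pfkp by 0.31 (0.13 to 0.49), and Pfkl minus Pfkm had a slope of -0.20 (adjusted permutation p = 0.00018). Slc2a1 minus Slc2a3 had a slope of -0.25 (-0.44 to -0.071), Pfkfb3 minus Pfkfb4 of -0.13 and Aldoa minus Aldoc of -0.12. Pfkfb4 and Aldoc never passed log2 6 and their own erythroid slopes were -0.0039 and -0.0066, so these 2 differences restate the slopes of Pfkfb3 (-0.13) and Aldoa (-0.13, not called) and show no change in isoenzyme use. Of the other called pairs, only Hk1 and Hk2 were both called with the index on their own. Pfkm and Slc2a1 were called, but their partners Pfkl, Pfkp and Slc2a3 were not. A change in both genes was therefore not shown for those pairs. For Ldha minus Ldhb the slope was -0.020 (-0.14 to 0.096), for Egln1 minus Egln3 0.037 (-0.074 to 0.15) and for Pfkl minus Pfkp 0.11 (-0.040 to 0.26), and these were not called.

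Without the 2 arrays farthest from the index median, 4 of the 6 pairs were called, and Pfkfb3 minus Pfkfb4 (-0.032, adjusted permutation p = 0.497) and Aldoa minus Aldoc (adjusted permutation p = 0.089) were not. In the 25 arrays with low lymphoid genes 0 pairs were called, none had an unadjusted permutation p under 0.05, and Hk1 minus Hk2 had a slope of 0.074 (-0.27 to 0.41). Those arrays lack the low end of the erythroid index, so they retest the pairs over part of its range only.

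To see whether glycolytic genes moved with each other and with the hypoxia genes, the members were set against 4 of their own: Ldha, Slc2a1, Pdk1 and Hif1a. Along Ldha, 8 of 28 members rose and 0 fell, where 1.27% of all genes were called higher and 1.17% lower. They were Pfkp (0.35 ± 0.058 per SD of Ldha), Aldoa (0.27 ± 0.041), Pgk1 (0.25 ± 0.038), Tpi1 (0.25 ± 0.039), Pgam1 (0.23), Ankrd37 (0.085), Pfkl (0.071) and Aldoc (0.039). The adjusted p was 0.00035 for Pgk1 and Aldoa. Gapdh rose by 0.22 on the control probe sets (adjusted p = 0.0023). All but Ankrd37 are enzymes of the chain between hexokinase and enolase. Slc2a1 had a slope of 0.023 and Hif1a of 0.10, and neither was called. Of the genes with a mean above log2 6, 8.02% were called along Ldha, and 6 of 16 members.

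With the 8 marker indices as covariates, 0 members were called along Ldha, as were 0 of all genes in that fit; 11 members passed at an unadjusted p under 0.05, and all 8 kept their direction. There Pfkp had a slope of 0.43, Aldoa 0.30, Pgam1 0.26 and Pgk1 0.23, with adjusted p from 0.166 to 0.376 for these 4 genes. Restricted to the 25 arrays with low lymphoid genes, limma called 0 members, 11 had an unadjusted p under 0.05, and Pfkp and Aldoa had slopes of 0.33 and 0.25.

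**Figure D5:**
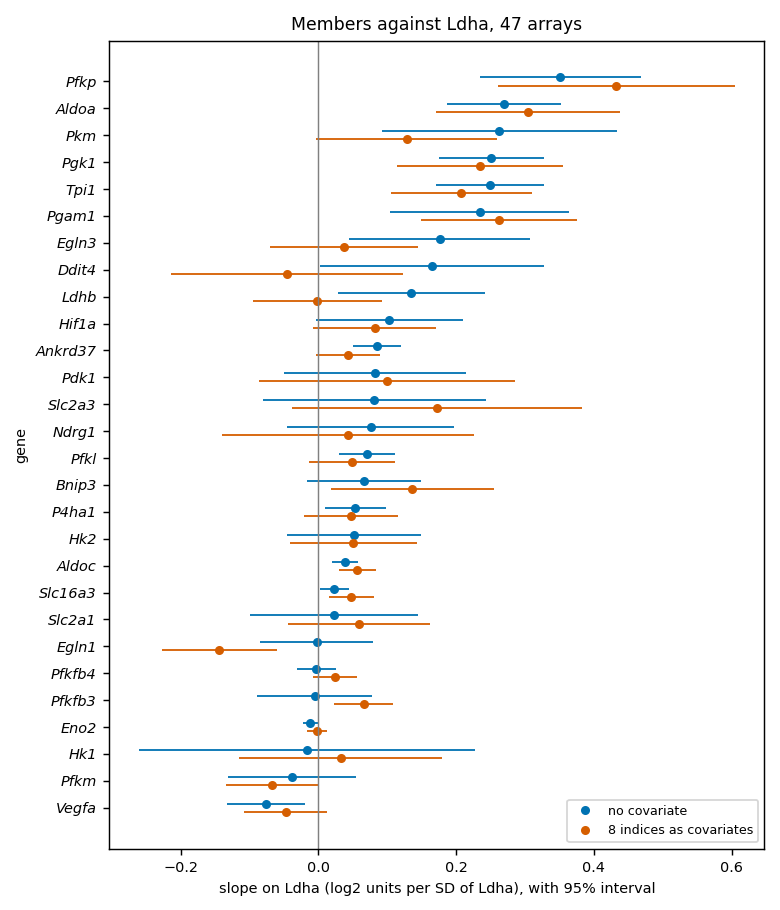
Slope of the other 28 tested members on Ldha (x axis, log2 units per SD of Ldha, with 95% intervals; genes on the y axis) over 47 arrays, without covariates (blue) and with the 8 marker indices as covariates (orange). Pfkp and Aldoa had slopes of 0.35 and 0.27 without the covariates and of 0.43 and 0.30 with them, where neither was called.

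Along Slc2a1, 10 members rose (14.5% of genes higher) and 2 fell (21.1% lower). Of the genes with a mean above log2 6, 60.6% were called along Slc2a1, and 8 of 17 members. Along Hif1a these were 50.0% and 9 of 16, and along Pdk1 16.1% and 3 of 16. Pkm rose by 0.44, Pgam1 by 0.39, Hk2 by 0.28, Hif1a by 0.26, Egln3 by 0.25, Pfkfb3 by 0.19, Egln1 by 0.15, Ldhb by 0.15, P4ha1 by 0.061 and Pfkfb4 by 0.048, and Hk1 fell by 0.63 and Pfkm by 0.23. Along Hif1a, 12 members rose (13.8% higher) and 2 fell (17.7% lower), and those that fell were Hk1 (by 0.62) and Pfkm (by 0.23). Pkm, Pgam1, Slc2a1, Ddit4, Egln3, Ldhb, Hk2, Pfkfb3, Pdk1, Egln1, Ndrg1 and P4ha1 rose. Along Pdk1, Pkm (0.36) and Pfkfb3 (0.15) rose, with 4.72% of genes higher, and Hk1 and Pfkm fell by 0.40 and 0.13, with 5.85% lower.

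As covariates, the 8 marker indices left 2 calls along Slc2a1 (Hk2 at 0.23 and Pgam1 at 0.35, both with an adjusted p of 0.043) and 0 along Hif1a and Pdk1, where 2 and 3 members passed at an unadjusted p under 0.05. Among the 25 arrays with low lymphoid genes none of these 3 anchors called a member, while 4, 6 and 5 members had an unadjusted p under 0.05 for Slc2a1, Hif1a and Pdk1.

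The mean standardised level of 17 transporter and enzyme genes correlated with that of 11 flux switch, Egln and hypoxia-induced genes at r = 0.51 (rho = 0.39) over the 47 arrays, and at r = 0.43 without the 2 arrays farthest from the median. The points share their RNA, lineage makeup and normalization, and within the 25 arrays with low lymphoid genes r was 0.32. Single genes did not all follow their group. Against the other glycolysis genes, r over the 47 arrays was 0.81 for Aldoa, 0.78 for Pgk1 and 0.70 for Ldha, but -0.17 for Hk1 and -0.22 for Pfkm. Against the other hypoxia genes, Pgam1 had r = 0.73 and Pkm 0.70, above all hypoxia-induced members, Ddit4 (0.52) included, whereas Bnip3 had r = -0.23 and Vegfa -0.32.

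Over the 406 pairs of tested members, the highest r was that of Hk1 and Pfkm, 0.89 over 47 arrays, and the lowest that of Hk1 and Pfkfb3, -0.83. Slc2a1 and Hk2 had r = 0.83 and Ldhb and Egln3 had r = 0.82. Within the 25 arrays with low lymphoid genes these 4 values were 0.34, -0.38, 0.52 and 0.18. Hk1 and Hk2 went opposite ways in both sets, with r = -0.73 and -0.66, and Aldoa and Ldha the same way, with r = 0.69 and 0.61.

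Outside the members, the genes most like each anchor were taken as the 5 with the highest r over the 47 arrays. For Ldha these were Gorasp2 (0.68), Hdac3, Sema4d, Thumpd1 and Pstk (0.60). For Slc2a1 they were Arhgef6 (0.90), Myo1g, Dock2, Selplg and Cnn2 (0.85), for Hif1a Ly9 (0.85), Tnks2, Ablim1, Mllt11 and Lbh, and for Pdk1 Chmp1b (0.77), Tk2, Gstt2, Grap and Mtmr2. Within the 25 arrays with low lymphoid genes, r of these genes ran from 0.31 to 0.67 with Ldha, from 0.49 to 0.62 with Slc2a1, from 0.12 to 0.50 with Hif1a and from 0.69 to 0.86 with Pdk1.

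The rest of the pathway was read from lists of 87 genes, of which 79 were tested. Along the erythroid index, where 7.91% of all genes were called higher and 8.43% lower, 4 of 19 other glycolysis genes rose and 3 fell. Pklr, the pyruvate kinase of red cells and liver, rose by 0.20 ± 0.035 (adjusted p = 6.5e-05), next to the fall of Pkm, and Minpp1, an inositol polyphosphate phosphatase, rose by 0.48 ± 0.10. Slc2a6 and Pgm1 fell by 0.038 and 0.076. Slc2a6 ran only from 5.11 to 5.42, near the floor, and Pklr and Pgm1 were dim, with medians of 5.63 and 5.68. In the pentose phosphate branch 2 of 6 rose (Rpia by 0.18 and Taldo1 by 0.19) and 1 fell (Pgd by 0.15). Of 12 pyruvate dehydrogenase genes 0 rose and 1 fell, Pdha1, by 0.21, and of 7 gluconeogenesis genes Pck2 rose by 0.32.

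Among 10 other oxygen-sensing genes Siah1a and Hif3a rose by 0.058 and 0.096 along the erythroid index and 0 fell. Of 25 other hypoxia targets 2 rose and 5 fell, against the same 7.91% and 8.43% of all genes. Tfrc, the transferrin receptor through which red cell precursors take up iron, rose by 0.46 ± 0.040 (adjusted p = 2.9e-12), from 8.48 to 11.26 over the arrays, and Mxi1, a Myc antagonist, by 0.31. Adm and P4hb were among those that fell, by 0.037 and 0.12, and Adm lay near the floor, between 5.12 and 5.44. Along the T cell index 5 of the 25 rose and 1 fell (7.31% of all genes higher and 5.84% lower), and along Ldha 2 rose and 1 fell (1.27% and 1.17%).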

How the data were processed

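Total RNA of 47 spleens was measured on Affymetrix Mouse Genome 430 2.0 arrays, 1 per mouse. The deposited values are log2 expression values made by the authors with RMA in the affy package for R 2.15, per the submitters' processing notes; RMA quantile normalizes the arrays, so shifts common to most genes are removed. Values were used as deposited, through probe sets that the platform annotation gives to 1 gene (34958 of 45101), the brightest per gene. A gene was tested if 9 or more arrays passed log2 5 (18178 of 18193). Fits used limma 3.58.1 in R 4.3.3 (lmFit, eBayes) with Benjamini-Hochberg adjustment over all genes and a threshold of 0.05. The Erg, line and sex labels were fitted together, age with all 3, and each index or anchor alone. Permutation tests used numpy 2.4.6 and scipy 1.17.1 in Python 3.11.15. In simulated data for the erythroid index (18178 genes, 200 changed, 10 runs), slopes of 0.1, 0.2 and 0.4 were recovered in 29.45%, 76.2% and 94.75% of cases. The number of arrays limits the precision.

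All 32 members may be named; other pathway genes are, per list, the 2 with the smallest adjusted p per direction along the erythroid index, and for each anchor the 5 most correlated genes. Members and lists were chosen with earlier results of these data known. Promoter windows are RefSeq's, of GRCm38.p6, and no array coordinates were used. Alternatives changed the probe set rule, filter, covariates, RNA quality term, index scale and arrays used.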

Additional observations from a re-analysis of the deposited data

How the results depend on the processing

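No paired analysis was possible because the numbers in the sample titles only name mice, and every array is a separate animal. The 4 label comparisons called 0 members in limma under every alternative run, with 0 to 2 at an unadjusted p under 0.05. The counts below are members called, each with the share of all genes called in that fit; the restrictions to arrays with low Cd3d and Vpreb1 and to identifier 07 were chosen after seeing the data. In the 25 arrays with low Cd3d and Vpreb1 the counts were 0 for the erythroid (1.63% of all genes), B cell (0.187%), T cell (0.226%) and cell cycle (2.42%) indices and for the Ldha, Slc2a1 and Hif1a (0.0% each) and Pdk1 (2.25%) anchors. There they were 3 for megakaryocyte (8.09%), 2 for neutrophil (6.19%) and 1 for monocyte (1.63%), and 0 isoenzyme pairs; where 0 were called, 1 to 11 members passed at an unadjusted p under 0.05. In the 11 arrays of identifier 07 they were 7 for T cell (6.58%), 6 for Hif1a (5.77%), 1 for Slc2a1 (0.677%) and 0 for the other 7 indices, Ldha and Pdk1 (0.0% to 0.534%), with 0 to 9 members at an unadjusted p under 0.05. In the 33 arrays of identifier 09 they fell to 7 for monocyte (22.1%), 8 for T cell (6.82%), 0 for cell cycle (2.12%) and 1 for Pdk1 (2.16%). With the 8 indices together they were 3 for megakaryocyte (4.62%), 5 for neutrophil (13.6%) and 1 for monocyte (1.28%); as covariates they left 0 for Ldha (0.0%), Pdk1 (1.52%) and Hif1a (0.0%) and 2 for Slc2a1 (0.0385%). Genes with a mean above log2 6 gave 2 for megakaryocyte (20.6%), 4 for neutrophil (51.0%), 0 for stroma (1.5%) and 9 for Hif1a (50.0%), with 17 members tested, or 16 for Hif1a. That filter left out members that were called without it. They were Slc2a1, Hk2, Pfkfb3 and Pfkfb4 for neutrophil and Vegfa for stroma. For Hif1a they were Slc2a1, Hk2, Egln3, Pfkfb3 and P4ha1. Without the 2 farthest arrays megakaryocyte gave 6 (13.6%), and with ranks 4 (12.8%); the 3′ minus 5′ term gave 5 for cell cycle (12.7%). Smaller subsets have fewer arrays. Cd3d and Vpreb1 are markers of the T and B cell indices, so the arrays low in both span little of these indices. Those arrays also lack the low end of the erythroid index. Apart from members left out by the filter, the cause of each change was not tested. All other alternatives stayed within 1.5 times the count from all 47 arrays.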
